A study of Mus musculus with 36 samples.

Results

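Ascorbate was given back to male *Gulo*-/- mice for 4 weeks, and the liver transcripts of these mice (MGLR40) were compared with those of males that were without ascorbate when the liver was taken (MGL00). Each group held 3 of the 36 mice of the series. All *Gulo*-/- mice lack a working L-gulonolactone oxidase in every cell and depend on ascorbate in the drinking water. MGL00 mice had 0.4% ascorbate until 3 months of age and none for the last 4 weeks. MGLR40 mice had 0.4% until 2 months, none for 4 weeks, and 0.4% again from 3 months. Side by side with them are given the males kept on 0.4% since weaning (MGL40) and the *Gulo*+/+ males that make their own ascorbate and had no supplement (MWT00), 3 of each. The tests among males took their spread from all 18, which include *Gulo*-/- males given 0.05% (MGL05) or 0.01% ascorbate (MGL01) since weaning, 3 of each. Tests that bring in females took their spread from all 36 mice. Female *Gulo*-/- mice had ascorbate removed (FGL00), given back (FGLR40), or kept at 0.4% (FGL40), 0.05% (FGL05) or 0.01% (FGL01) since weaning. *Gulo*+/+ females had no supplement (FWT00), and each female group held 3 mice. All livers were taken whole at 4 months, after a fast overnight. No liver was taken at 3 months, so the level each MGLR40 mouse started from was not measured, and MGL00 stands in for it. The values are TPM, abundances corrected for transcript length that in each mouse sum to 1000000 over 36066 genes. The comparison was made over the 18288 genes detected (TPM above 0) in 4 or more of the 6 mice of MGL00 and MGLR40. Of the 17778 genes left out, 13586 were at 0 in all 6.

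Ascorbate is the cofactor of hydroxylases that modify collagen, carnitine precursors and the hypoxia-inducible factors, and an electron donor in many compartments of the cell. The liver answers infection and injury with the acute phase response, in which interleukin 6, acting through the transcription factor STAT3, raises the transcripts of many secreted plasma proteins. It is also a tissue with a marked sex difference: pulses of growth hormone, acting through STAT5, keep male-biased transcripts such as those of the major urinary proteins (Mups) high and female-biased ones low.

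Between MGL00 and MGLR40, 434 genes passed an adjusted p of 0.05 with a ratio of mean TPM above 2, by limma on log2(TPM + 1) over the 18 males. In MGLR40 186 were higher (1.02% of the genes tested) and 248 lower (1.36%). Acute phase genes, metallothioneins and the cell cycle inhibitor *Cdkn1a* were among the lower, and Mups, other male-biased genes and the desaturase *Scd1* among the higher. The genes called higher took 1.82% to 2.61% of all TPM in the MGL00 mice and 7.41% to 8.38% in the MGLR40 mice, and those called lower 5.32% to 6.84% and 2.10% to 2.32%. Leaving out 1 of the 6 mice at a time gave 283 to 371 genes, the fewest without MGLR40-2829, and 197 of the 434 were called each time. Members of gene lists are counted below as having risen or fallen on the adjusted p alone. By it 514 genes rose (2.81%) and 1059 fell (5.79%), the shares beside which each male count is to be read. The median log2 fold change of all genes tested was −0.03. The values of the 2 groups did not overlap for 1973 genes higher (10.8%) and 3795 lower (20.8%) in MGLR40.

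The labels were checked first. *Gulo*, the gene mutated in these mice, had 23.5, 25.9 and 22.6 TPM in MGL00, 23.8, 21.9 and 22.2 TPM in MGLR40 and 149.8, 144 and 164 TPM in MWT00. *Ddx3y*, a gene of the Y chromosome, had 26.1, 22.3 and 29.1 TPM in MGL00 and 15.1, 23.4 and 25.4 TPM in MGLR40. The last of these is MGLR40-2831, whose title says female while its sex label says male, and its value lies among those of the other males. The 4 Y-linked genes checked summed to 67.8 to 85.8 TPM in MGL00, 65.6 to 76.7 TPM in MGLR40 and 76.7 TPM in MGLR40-2831. Among the 4, *Kdm5d* alone fell at an adjusted p of 0.05 (log2 fold change −0.55), and it did so whichever mouse was left out. Values for single mice are given throughout in the order MGL00-2783, MGL00-2784 and MGL00-2787, and MGLR40-2828, MGLR40-2829 and MGLR40-2831. On log2(TPM + 1), Pearson correlations over all genes were 0.992 to 0.994 within MGL00, 0.993 to 0.994 within MGLR40 and 0.983 to 0.986 between them. The hepatocyte marker *Alb*, the gene of albumin, was at 50232, 49533 and 49429 TPM and 49249.8, 42628 and 44098 TPM.

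**Figure D1:**
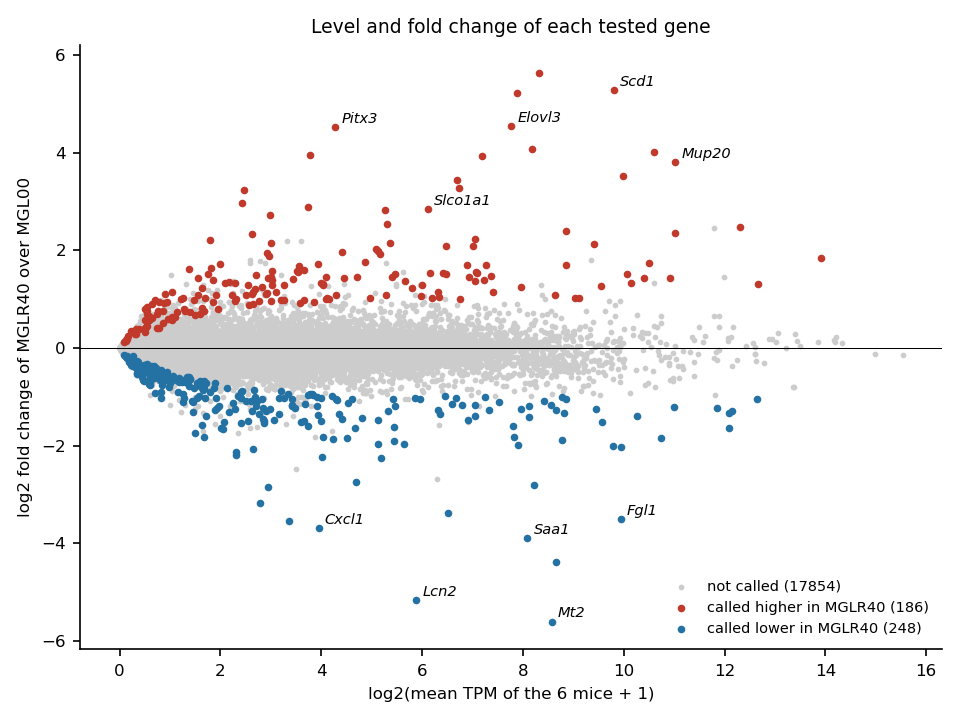
Each point is 1 of the 18288 genes tested, with log2 of its mean TPM over the 6 mice plus 1 across and its log2 fold change of MGLR40 over MGL00, on the log2(TPM + 1) scale, upward. Red points are the 186 genes called higher in MGLR40, blue points the 248 called lower and grey points the rest; *Mt2* and *Lcn2* lie lowest, at −5.60 and −5.17.

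Of all genes tested *Mt2* fell most. Metallothioneins are small cysteine-rich proteins that bind zinc and copper, and their genes are switched on by metals through the factor MTF1 and also by glucocorticoids and interleukin 6. *Mt2* had 298, 1219 and 717 TPM in MGL00 and 13, 6.68 and 20.1 TPM in MGLR40, a mean 56.1 times lower (log2 fold change −5.60 ± 0.88 (SE), adjusted p = 0.00173). *Mt1* had 374, 1116 and 827 TPM and 34.6, 18.6 and 52.8 TPM (−4.39 ± 0.79, adjusted p = 0.00441). For either gene every MGL00 mouse was above every MGLR40 mouse, with MGL00-2783 the lowest of its group, and MGL40 lay at 4.68, 14 and 9.70 TPM for *Mt2*. The zinc importer *Slc39a14* fell too, with 165, 206 and 157 TPM and 64.5, 62.6 and 59 TPM (−1.48 ± 0.13, adjusted p = 4.45e-05). The exporter *Slc30a10*, which carries manganese, rose from 15.6, 16.1 and 10.6 TPM to 27, 27.5 and 21.1 TPM (adjusted p = 0.00953). The other 4 of the 8 tested members of this list did not pass, among them *Mtf1* itself (8.67, 7.96 and 10.1 TPM and 8.91, 7.63 and 7.81 TPM).

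The 250 bases before the start of *Mt1* and *Mt2* are shown because the genes lie side by side on chromosome 8 and moved together. The sequences are RefSeq's on GRCm38.p6, written 5′ to 3′, at chr8:94178839-94179088 (plus strand) for *Mt1* and chr8:94172368-94172617 (plus strand) for *Mt2*. Capitals mark the core of the metal response element, to which MTF1 binds, searched on both strands as TGCACNC or TGCGCNC.
Mt1: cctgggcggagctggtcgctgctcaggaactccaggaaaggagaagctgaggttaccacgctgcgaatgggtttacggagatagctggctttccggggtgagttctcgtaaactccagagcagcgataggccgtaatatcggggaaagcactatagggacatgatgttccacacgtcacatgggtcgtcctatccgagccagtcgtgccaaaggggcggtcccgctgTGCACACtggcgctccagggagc
Mt2: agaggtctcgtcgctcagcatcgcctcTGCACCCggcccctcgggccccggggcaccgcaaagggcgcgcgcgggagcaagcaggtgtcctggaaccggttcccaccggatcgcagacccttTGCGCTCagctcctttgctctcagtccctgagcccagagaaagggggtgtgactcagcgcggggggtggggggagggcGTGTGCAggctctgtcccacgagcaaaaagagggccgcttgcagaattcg
The window of *Mt1* held 1 core and that of *Mt2* 3 cores. Each window stops at 1 annotated start, and cores outside it were not searched, so these are not the totals of either gene. At least 1 core was found in 21.4% of the 32851 promoter windows of the same length in the table. A match of letters is a description and not a binding site.

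Acute phase transcripts fell almost as a block. Of 32 genes tested 26 fell and 0 rose, with a median log2 fold change of −1.31, against 5.79% of all genes falling. In 27 of the 32 the values of the MGLR40 mice lay wholly below those of MGL00, beside 20.8% of all genes. Their summed TPM took 4.66%, 5.72% and 4.73% of all TPM in the MGL00 mice and 2.72%, 2.38% and 2.52% in the MGLR40 mice (5.04 ± 0.590% and 2.54 ± 0.174%, SD, n = 3; exact two-sided permutation test, p = 0.1, the smallest that 3 mice against 3 can give). Leaving out 1 mouse gave 20 to 26 genes that fell.

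Among them were abundant plasma proteins. Fibrinogen-like *Fgl1*, secreted by hepatocytes, had 1421, 1866 and 2117 TPM in MGL00 and 211, 128 and 139 TPM in MGLR40 (−3.51 ± 0.50, adjusted p = 0.00114). The hemoglobin-binding haptoglobin, *Hp*, had 5539, 6985 and 6237 TPM and 2709, 2391 and 2334 TPM (−1.33 ± 0.20), and the heme carrier hemopexin, *Hpx*, 5653, 7175 and 6941 TPM and 2242, 1917 and 2179 TPM (−1.64 ± 0.25). *Apcs*, the serum amyloid P component, fell 7.20-fold, from 391, 631 and 549 TPM to 86.6, 66.7 and 65 TPM, and the groups were far apart in each of these genes. The inter-alpha-trypsin inhibitor chains *Itih3* and *Itih4* fell by 2.03 and 1.85 on the log2 scale, and complement *C3* and *C4b* by 0.96 and 1.52. The 3 fibrinogen chains *Fga*, *Fgb* and *Fgg* fell by 1.29, 1.21 and 1.22, but none of them in every leave-one-out. *Fga* was lost without MGL00-2784 (adjusted p = 0.0578), *Fgg* without MGL00-2784 or MGLR40-2829 (up to 0.0634), and *Fgb* without any mouse but MGL00-2783 and MGL00-2787 (up to 0.0833). The iron regulator *Hamp*, an acute phase gene in many settings, did not pass (4140.5, 3100.4 and 1482 TPM and 4329.9, 3629.9 and 4698 TPM, adjusted p = 0.248), nor did *Serpina3k*, *Il1rn*, *Cd14* and *A2m* among others.

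Lipocalin *Lcn2*, which binds bacterial siderophores, had 59.1, 147 and 136 TPM and 2.80, 2.07 and 1.25 TPM (−5.17 ± 0.95, adjusted p = 0.00464). The chemokine *Cxcl1*, which draws neutrophils, had 14.3, 55.1 and 14.7 TPM and 0.795, 1.14 and 0.606 TPM (−3.70 ± 0.47, adjusted p = 0.000638), with MGL00-2784 above the other MGL00 mice. The orosomucoids *Orm3* (14, 15.3 and 24.2 TPM and 0.322, 0.778 and 0.681 TPM) and *Orm2* (43.1, 55.3 and 31.9 TPM and 3.51, 4.75 and 9.57 TPM), carriers of small molecules in plasma, fell by 3.54 and 2.74. They and *Orm1* are close copies, so the split of reads among them is uncertain. *Lrg1*, a leucine-rich plasma glycoprotein, fell by 2.00 and the lubricin gene *Prg4* by 1.97.

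**Figure D2:**
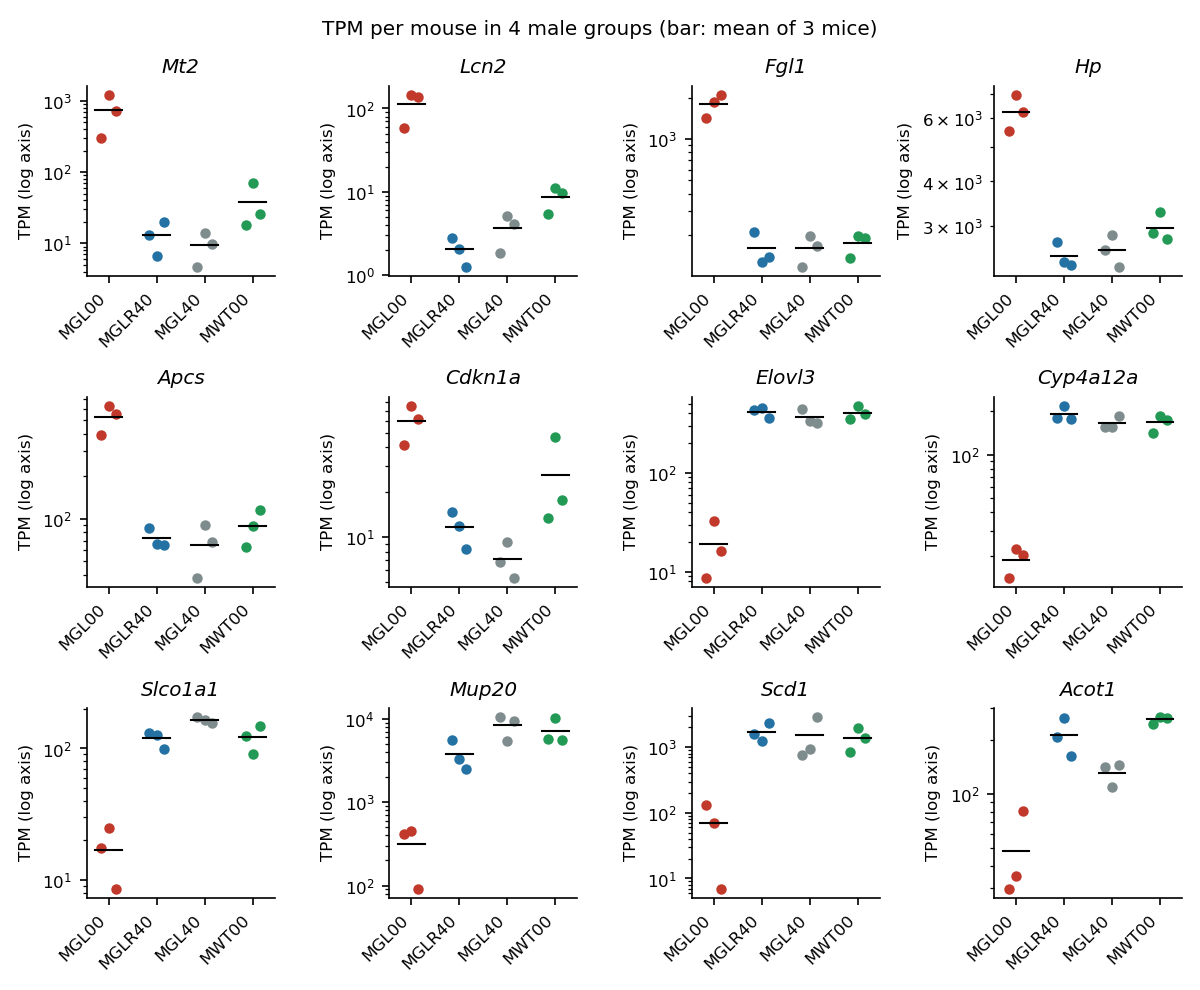
TPM of 12 genes on log axes in the MGL00, MGLR40, MGL40 and MWT00 males, 1 point a mouse, with a bar at the mean of 3. In *Mt2*, *Lcn2*, *Fgl1*, *Hp*, *Apcs* and *Cdkn1a* the MGL00 mice lie above all MGLR40 mice, and in *Elovl3*, *Cyp4a12a*, *Slco1a1*, *Mup20*, *Scd1* and *Acot1* below them.

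The serum amyloids *Saa1* and *Saa2*, lipoprotein-bound proteins of the acute phase, had 367, 733 and 427 TPM against 33, 25.7 and 37.5 TPM and 114, 281 and 106 TPM against 11.8, 9.68 and 21.8 TPM. The groups did not overlap in either (log2 fold changes −3.90 ± 0.95 and −3.37 ± 0.93, adjusted p = 0.021 and 0.0364). Both calls were thin: *Saa1* no longer passed when any mouse other than MGL00-2783 was left out (adjusted p up to 0.0751), and *Saa2* when any of the 6 was (up to 0.128). *Saa3* fell in each case (33.8, 51.1 and 20.3 TPM and 8.37, 7.27 and 9.98 TPM, −1.84 ± 0.37). *Saa1* and *Saa2* lie back to back on chromosome 7, and the 250 bases before their starts are shown because they make plain how alike these copies are. They are RefSeq's on GRCm38.p6, 5′ to 3′, at chr7:46742981-46743230 (minus strand) and chr7:46751583-46751832 (plus strand), with capitals at the bases that differ in a global alignment.
Saa1: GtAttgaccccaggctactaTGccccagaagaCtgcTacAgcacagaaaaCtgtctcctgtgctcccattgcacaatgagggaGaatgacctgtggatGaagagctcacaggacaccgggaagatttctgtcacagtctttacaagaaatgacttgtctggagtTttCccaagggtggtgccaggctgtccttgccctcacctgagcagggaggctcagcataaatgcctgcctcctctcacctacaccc
Saa2: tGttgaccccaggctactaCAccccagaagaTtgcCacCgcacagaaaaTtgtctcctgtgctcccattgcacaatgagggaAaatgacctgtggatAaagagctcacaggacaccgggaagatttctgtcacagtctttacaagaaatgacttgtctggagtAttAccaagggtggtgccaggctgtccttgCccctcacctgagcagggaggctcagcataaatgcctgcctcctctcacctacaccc
Of 251 aligned columns 238 were identical (94.8%). The genes are close copies, so the split of reads between them is uncertain. Neither window held the STAT site TTCNNNGAA, which was found in 7.02% of the windows in the table.

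Of 19 genes of interleukin 6 and STAT3 signaling 6 fell and 2 rose (median −0.43), beside 5.79% and 2.81% of all genes. The receptor chain *Il6ra* had 25.9, 32 and 32.4 TPM in MGL00 and 11.2, 11.8 and 8.10 TPM in MGLR40 (−1.46 ± 0.23, adjusted p = 0.00154). *Stat3* had 112, 120.3 and 101 TPM and 48.7, 42 and 44.8 TPM (−1.28 ± 0.20), and the partner factors *Cebpb* and *Cebpd* fell by 1.26 and 1.24. The 4 held whichever mouse was left out. *Il6st* and *Nfkbia* did not, each lost in 5 of the 6 cases (adjusted p up to 0.132 and 0.124). The risen *Lifr* was lost without MGL00-2787 or MGLR40-2831 (up to 0.0584), and *Pim1* without any mouse but MGL00-2784 (up to 0.0914). After median-ratio scaling of the TPM 4 fell and 2 rose. The feedback inhibitor *Socs3* lay at 14.6, 23 and 19.7 TPM and 8.31, 14 and 11.7 TPM and did not pass (adjusted p = 0.159). Of 14 plasma proteins grouped here as falling in an acute phase, with *Serpina1a* to *Serpina1d* among them, 0 rose and 4 fell. Whether each of the 14 falls in an acute phase of the mouse was not tested. The iron carrier *Trf* had 13733, 13316 and 12909 TPM and 7974, 7371 and 7645 TPM (−0.80 ± 0.08), the fetuins *Ahsg* and *Fetub* fell by 1.04 and 0.88, and *Apoa1* fell by 0.79 (adjusted p = 0.0484, lost when any mouse was left out, up to 0.134, and lost after scaling).

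In whole liver, fewer cells of a type and less RNA per cell cannot be told apart. Of 6 monocyte markers 4 fell, the chemokine receptor *Ccr2*, *Chil3*, *Plac8* and *S100a4*, and the summed level of all 6 was 17.6 to 20.6 TPM in MGL00 and 7.53 to 9.61 TPM in MGLR40. Without MGL00-2784 or MGLR40-2829 2 of the 6 fell, and 3 or 4 without any other mouse. The 10 neutrophil markers summed to 12.8 to 24.5 TPM and 4.71 to 9.38 TPM, and 1 of 8 tested fell, *Retnlg* (1.08, 1.63 and 1.20 TPM and 0.461, 0.110 and 0.122 TPM; lost without any mouse but MGLR40-2828, adjusted p up to 0.115). *S100a8* and *S100a9*, the most abundant of them, had adjusted p of 0.0542 and 0.0511. Of 12 markers of Kupffer cells, the resident macrophages, 1 fell, *Cd68*, beside 5.79% of all genes falling. The sums of these markers were 464 to 561 TPM and 358 to 441 TPM. Hepatocyte markers summed to 77842 to 79498 TPM and 66184 to 73485 TPM, also without overlap. Stellate cell markers summed to 132 to 176 TPM and 105 to 128 TPM. Pericentral, periportal, and T and NK cell sums lay lower without overlap too. The sums of B cell, sinusoidal endothelial, cholangiocyte and erythroid markers overlapped. *Prtn3*, a granule protease of neutrophils and their precursors, had 5.73, 20.2 and 8.66 TPM in MGL00 and 0.361, 0.168 and 0.167 TPM in MGLR40 (−3.18 ± 0.45, adjusted p = 0.00102). The part of such cells in the fall of *Lcn2*, *Cxcl1* and *Prtn3* was not tested. Of the pancreatic markers *Ctrb1*, *Pnlip*, *Cpa1* and *Prss2* were at 0 in all 6 mice.

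The Mup list had the highest median. Mups are small lipocalins made by the liver and passed into the urine, where they carry pheromones. Of 21 tested 19 rose and 0 fell (median 2.48), against 2.81% of all genes rising. In all 21 the MGLR40 mice lay above the MGL00 mice, beside 10.8% of all genes. The 22 Mup genes together took 1.19%, 1.68% and 0.785% of all TPM in the MGL00 mice and 5.81%, 6.04% and 4.78% in the MGLR40 mice, with means of 1.22 ± 0.449% and 5.54 ± 0.672% (SD, n = 3; exact two-sided permutation test, p = 0.1, the smallest possible). *Mup20*, the pheromone darcin, had 414, 449 and 91 TPM and 5607, 3335 and 2515 TPM (3.81 ± 0.67, adjusted p = 0.0038). *Mup3* had 2374, 2234 and 639.7 TPM and 9390.4, 8782 and 7167 TPM (2.48 ± 0.43), and *Mup21* 17.2, 23.5 and 9.54 TPM and 259.7, 132 and 175 TPM (3.45 ± 0.38, adjusted p = 0.000285). In each of the 3, MGL00-2787 was the lowest mouse. The largest fold was that of *Mup17*, with 9.59, 24.9 and 5.62 TPM and 578, 821 and 465 TPM (5.63 ± 1.25), which no longer passed without MGL00-2787 or MGLR40-2829 (adjusted p = 0.0502 and 0.0521). The most abundant, *Mup22*, rose from 6232, 9558 and 4892 TPM to 22799, 25705 and 23044 TPM (adjusted p = 0.02, lost without any mouse but MGL00-2784, up to 0.0773). *Mup19* had 871, 1629.8 and 882 TPM and 5783, 7237 and 4969 TPM and did not pass (adjusted p = 0.059), nor did *Mup13* (0.0872). With only the groups compared in the fit, and with array weights, *Mup19* did pass. Leaving out MGL00-2783, MGL00-2787, MGLR40-2828, MGLR40-2829 or MGLR40-2831 left 10, 8, 10, 8 and 11 Mup genes past the test, and without MGL00-2784 there were 15. Many Mup genes are nearly identical, so the split of reads among such copies is uncertain.

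**Figure D3:**
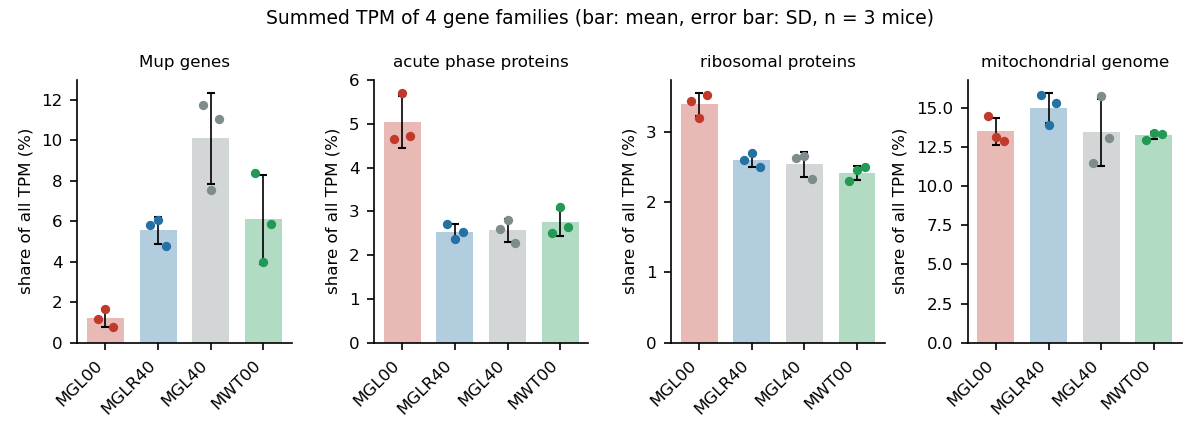
Summed TPM of the Mup genes, the acute phase proteins, the ribosomal proteins and the 13 mitochondrial genome transcripts in 4 male groups, as a percentage of all TPM (bar: mean, error bar: SD, n = 3; points: mice). The Mup bar stands at 1.22% in MGL00 and 5.54% in MGLR40, the acute phase bar at 5.04% and 2.54%, and the ribosomal bar at 3.39% and 2.60%.

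Other male-biased transcripts of the liver rose with the Mups. Of 23 tested 12 rose and 0 fell (median 0.97), beside 2.81% and 5.79% of all genes, and 9 to 12 rose when 1 mouse was left out. *Elovl3*, an elongase of very long fatty acids, had 8.64, 32.6 and 16.1 TPM in MGL00 and 436, 457 and 356 TPM in MGLR40 (4.55 ± 0.41, adjusted p = 4.45e-05). The organic anion transporter *Slco1a1* had 17.5, 25 and 8.51 TPM and 132, 128 and 98.8 TPM (2.85 ± 0.33, adjusted p = 0.000288). The fatty acid hydroxylase *Cyp4a12a* had 14.2, 22.4 and 20.3 TPM and 179, 217 and 175 TPM (3.28 ± 0.42, adjusted p = 0.000638), with its near copy *Cyp4a12b* rising by 2.88. The groups were wide apart in all of these. *Hsd3b5*, a steroid dehydrogenase of male liver, had 1.09, 0.568 and 0.201 TPM and 31.5, 28.9 and 13.8 TPM (3.95 ± 0.88, adjusted p = 0.0141), and did not pass without MGLR40-2828 or MGLR40-2829 (adjusted p = 0.0525 and 0.053). Smaller rises were those of the steroid hydroxylase *Cyp2d9* (0.96 on the log2 scale), the glutathione transferase *Gstp1* (1.43), *Cyp2u1* (1.68) and the glucuronosyltransferase *Ugt2b1* (1.54). *Cyp7b1*, which hydroxylates oxysterols, lay at 28.4, 27 and 29.1 TPM and 54.2, 54.4 and 52.5 TPM without overlap, yet its adjusted p was 0.104. It did pass with only the groups compared in the fit, and with array weights.

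Outside the list, *Pitx3*, which encodes a homeobox factor known from the lens and from dopamine neurons, followed *Elovl3*, with 0.936, 0.475 and 0.347 TPM and 33.1, 48.7 and 26.8 TPM (4.53 ± 0.30, adjusted p = 1.92e-06). The 2 genes meet tail to tail on opposite strands of chromosome 19, where their spans share 10 bases in GENCODE M21. The authors made directional libraries, and whether strand was used in the pseudoalignment is not given in the sources used here. Whether reads of *Elovl3* were counted for *Pitx3* was not tested. *Nat8f5*, of the N-acetyltransferase 8 family, had 0.431, 0.193 and 0 TPM and 11, 6.89 and 7.63 TPM (2.97 ± 0.49, adjusted p = 0.00243). *Ugt1a5*, a glucuronosyltransferase that shares its last exons with the other *Ugt1a* genes, had 20.1, 13.1 and 3.64 TPM and 72.2, 50.9 and 69.7 TPM (2.53 ± 0.52).

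Of 32 female-biased transcripts tested 10 fell and 0 rose (median −0.50), beside 5.79% of all genes falling. Leaving out a mouse gave 5 to 10 that fell: 5 without MGL00-2783 and 6 without MGLR40-2831. *Cux2*, a repressor of male-biased genes in female liver, had 35.1, 19.1 and 31.7 TPM in MGL00 and 7.59, 6.47 and 6.58 TPM in MGLR40 (−1.87 ± 0.29, adjusted p = 0.00162). The prolactin receptor *Prlr* had 154, 126 and 118 TPM and 54.5, 59.7 and 63.9 TPM (−1.14 ± 0.18). *Nipal1*, a magnesium transporter, had 6.66, 7.53 and 7.05 TPM and 0.646, 1.20 and 0.702 TPM (−2.14 ± 0.42, lost with a pseudocount of 0.1, adjusted p = 0.0541), and *Atp6v0d2*, a subunit of the proton pump of vacuoles, 4.87, 5.99 and 10.7 TPM and 0.653, 0.519 and 0.986 TPM (−2.19 ± 0.29). In none of the 4 did the groups overlap. The P450 *Cyp2b9*, with 49.7, 67 and 293 TPM and 4.59, 22.1 and 28.2 TPM, did not pass (adjusted p = 0.14), MGL00-2787 being far above the rest.

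Of 19 genes of the growth hormone and STAT5 axis 2 fell, *Prlr* and *Cux2* of the paragraph above, and 1 rose, *Rtp3* (45.8, 41.4 and 45.1 TPM and 66.4, 58.3 and 58.2 TPM, adjusted p = 0.0393, lost when any mouse was left out, up to 0.139). The growth hormone receptor *Ghr* lay at 252, 249 and 269 TPM and 269, 279 and 312 TPM (adjusted p = 0.359). *Igf1*, the growth factor that growth hormone raises in liver, lay at 374, 338 and 390.0 TPM and 335, 285 and 329 TPM (−0.22 ± 0.10, adjusted p = 0.202). The STAT5 target *Socs2* (29.1, 20.6 and 22.2 TPM and 16.8, 12.8 and 37.6 TPM) and the repressor *Bcl6* (6.03, 8.90 and 5.81 TPM and 5.44, 26.9 and 8.44 TPM) overlapped between the groups.

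Of 22 genes of fatty acid synthesis tested 5 rose and 2 fell (median 0.23), beside 2.81% and 5.79% of all genes. *Scd1*, the stearoyl-CoA desaturase that makes oleate, had 133, 70.6 and 6.91 TPM in MGL00 and 1571, 1235 and 2326 TPM in MGLR40 (5.29 ± 0.90, adjusted p = 0.00315), and MGL00-2787 was far below the other MGL00 mice. The elongase *Elovl6* had 5.44, 3.59 and 2.33 TPM and 9.22, 9.55 and 12.3 TPM (1.29 ± 0.27). Malic enzyme *Me1* rose as well, 45, 43 and 41.1 TPM and 123, 125 and 131 TPM (adjusted p = 0.0263, lost when any mouse was left out, up to 0.0757). The phosphatidate phosphatase *Lpin1* fell from 20.9, 19.6 and 16.5 TPM to 6.10, 5.38 and 5.38 TPM (−1.59 ± 0.27), and *Srebf1*, the gene of the factor that drives the pathway, from 152, 151 and 107 TPM to 61.5, 56.1 and 82.4 TPM (adjusted p = 0.0144, kept only without MGL00-2787 or MGLR40-2831, up to 0.0646). Fatty acid synthase *Fasn* lay at 46.2, 33.7 and 16.6 TPM and 35.7, 37.4 and 34.5 TPM and did not pass (adjusted p = 0.688). *Scd1* and *Elovl6* rose whichever mouse was left out. The count that rose was 4 without MGL00-2783, 2 without MGL00-2784 or MGLR40-2829 and 3 without any other mouse. Of 25 genes of cholesterol synthesis 1 rose, beside 2.81% of all genes rising. It was the sterol reductase *Tm7sf2* (adjusted p = 0.0175, lost without MGLR40-2828 or MGLR40-2831, up to 0.0619).

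Of 25 genes of fatty acid oxidation and targets of PPAR-alpha 6 rose and 0 fell (median 0.51), beside 2.81% and 5.79% of all genes. The values of 13 lay wholly higher in MGLR40, beside 10.8% of all genes. *Acot1*, which splits long acyl-CoA, had 29.7, 34.9 and 80.2 TPM and 209, 267 and 163 TPM (2.23 ± 0.47, adjusted p = 0.0108). *Plin2*, which coats lipid droplets, had 299.7, 360.3 and 367 TPM and 629, 752 and 718 TPM (1.03 ± 0.17, adjusted p = 0.0021). These 2 held whichever mouse was left out. *Fabp1*, the fatty acid carrier of the hepatocyte, rose from 3029.8, 3811 and 4442 TPM to 7596, 10097 and 10001 TPM (adjusted p = 0.0162, up to 0.0661 when 1 mouse was left out), and the fasting hormone *Fgf21* from 3.28, 8.34 and 13.9 TPM to 29.9, 41.2 and 25.9 TPM (adjusted p = 0.0216, up to 0.0926). The count was unsteady: it was 13 without MGL00-2787, 2 without MGL00-2783 or MGLR40-2829, 3 without MGL00-2784, 4 without either other mouse, and 11 after median-ratio scaling. *Cpt1a*, the gate of mitochondrial oxidation, lay at 164, 203 and 275 TPM and 227, 226 and 265 TPM (adjusted p = 0.538).

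Of 14 bile acid genes tested 4 rose and 0 fell, none by a ratio of 2: the uptake carrier *Slc10a1* (0.43 on the log2 scale), the phospholipid flippase *Abcb4* (0.89), the bile acid receptor *Nr1h4* (0.45) and the conjugating enzyme *Baat* (0.27). The count was 0 without MGL00-2784, 1 without MGL00-2783 or MGLR40-2828, 2 without MGLR40-2829 or MGLR40-2831 and 4 without MGL00-2787. *Cyp7a1*, the rate-limiting enzyme of bile acid synthesis, lay at 24.1, 38.7 and 29 TPM and 22.2, 13.2 and 27.4 TPM (adjusted p = 0.677).

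Of 32 genes of drug metabolism 5 rose and 4 fell, beside 2.81% and 5.79% of all genes. *Cyp3a11*, a P450 that oxidizes many drugs, had 1111, 1197 and 841 TPM in MGL00 and 2859.8, 3065 and 2538 TPM in MGLR40 (1.44 ± 0.17, adjusted p = 0.000322). The periportal *Cyp2f2* had 246, 245 and 167 TPM and 721, 709.6 and 678 TPM (1.70 ± 0.22, adjusted p = 0.000691). *Ugt2b5*, which glucuronidates steroids, rose by 1.02. These 3 held in every leave-one-out and were all that rose without any mouse but MGL00-2783, where 5 did. *Cyp2c37* and *Cyp3a13* fell, by 1.27 and 1.16 (adjusted p = 0.0397 and 0.0172). *Cyp2c37* was lost whichever mouse was left out (up to 0.125) and *Cyp3a13* without MGL00-2784, MGLR40-2829 or MGLR40-2831 (up to 0.0671). Of the list 2 fell without MGL00-2787, 0 without MGLR40-2831, 1 without any other mouse and 2 after scaling. *Cyp2f2* was the only 1 of 9 periportal markers to rise, and 0 of 9 pericentral markers passed.

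**Figure D4:**
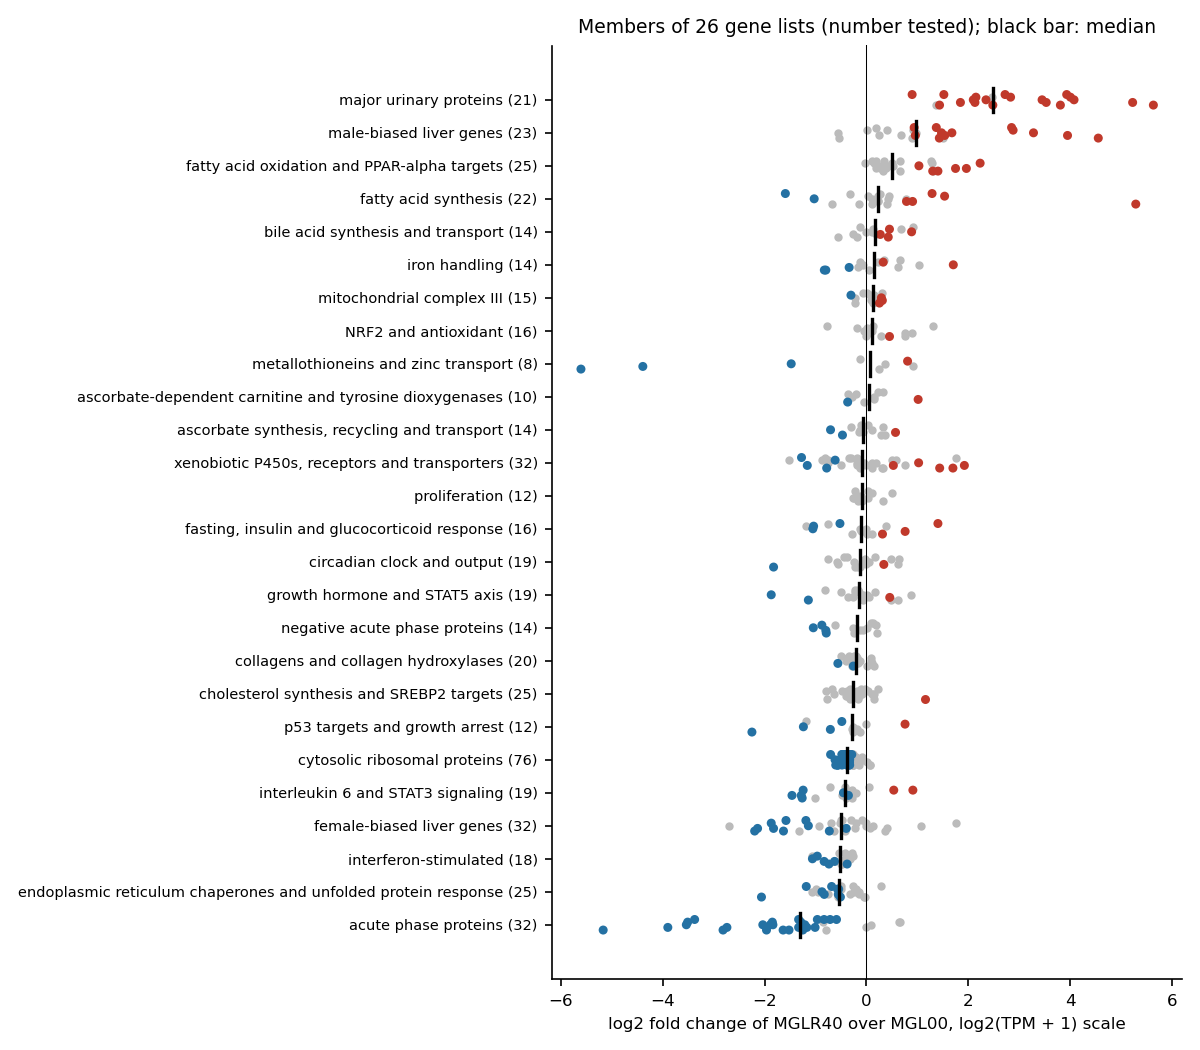
Log2 fold changes of MGLR40 over MGL00, on the log2(TPM + 1) scale, for the tested members of 26 gene lists, sorted by the median (black bar); the number tested is in parentheses. Members that rose at an adjusted p of 0.05 are red, those that fell blue and the rest grey. The Mup list stands highest, with a median of 2.48, and the acute phase list lowest, with −1.31.

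Ribosomal protein transcripts were lower by a small step. Of 76 tested 51 fell and 0 rose, beside 5.79% of all genes falling, with a median of −0.39, and no ratio reached 2. Their sum took 3.44%, 3.20% and 3.52% of all TPM in the MGL00 mice and 2.60%, 2.69% and 2.50% in the MGLR40 mice (3.39 ± 0.170% and 2.60 ± 0.0954%, SD, n = 3; exact two-sided permutation test, p = 0.1, the smallest possible). After median-ratio scaling 30 fell and the median was −0.31. Leaving out a mouse gave 44 without MGL00-2784, 29 without MGLR40-2829, 23 without MGLR40-2828, 19 without MGL00-2783 and 18 without either of the others. Transcripts of the mitochondrial genome took 13.5 ± 0.878% and 15.01 ± 0.973% (SD, n = 3; exact permutation test, p = 0.2).

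Of 25 genes of endoplasmic reticulum chaperones and the unfolded protein response 9 fell and 0 rose (median −0.55), beside 5.79% of all genes falling. *Herpud1*, which helps to clear misfolded proteins, had 346, 412 and 399 TPM and 154, 186 and 168 TPM (−1.18 ± 0.19, adjusted p = 0.00162), and the calcium-binding chaperone *Calr* 548, 659 and 525 TPM and 318, 336 and 288 TPM (−0.87 ± 0.18). *Chac1*, which degrades glutathione and is induced through ATF4, fell by 2.06. The chaperone *Hspa5* had 625, 671 and 443 TPM and 314, 326 and 323 TPM (adjusted p = 0.0374, lost without any mouse but MGL00-2787, up to 0.135, and lost after scaling). The count was 5 after scaling, 4 without MGL00-2783, MGL00-2784 or MGLR40-2831, 5 without MGLR40-2828 or MGLR40-2829, and 9 without MGL00-2787.

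*Cdkn1a*, the cyclin kinase inhibitor p21 that p53 induces, had 41.6, 75.8 and 61.3 TPM in MGL00 and 14.8, 11.9 and 8.37 TPM in MGLR40 (−2.25 ± 0.49, adjusted p = 0.012). The p53 target *Ccng1* fell from 19.3, 17.9 and 18.4 TPM to 10.2, 10.5 and 12.2 TPM (−0.71 ± 0.11), and of the 12 genes of this list 4 fell and 1 rose, *Gadd45a* (4.36, 4.19 and 3.75 TPM and 6.70, 8.62 and 7.60 TPM). None of 12 proliferation genes passed. The clock gene *Per1*, which glucocorticoids also induce, had 20.1, 24.6 and 29.3 TPM and 7.72, 5.42 and 5.59 TPM (−1.82 ± 0.26, adjusted p = 0.00102), 1 of 2 clock genes of 19 to pass. *Tsc22d3*, a glucocorticoid target, had 87, 84.6 and 78.5 TPM and 44.4, 35.5 and 39.5 TPM (−1.05 ± 0.22). In its list of 16 genes of fasting, insulin and glucocorticoids 3 rose and 3 fell, none rising without MGL00-2784, MGLR40-2828 or MGLR40-2829, 1 rising without any other mouse, and 1 falling without MGL00-2784 or MGLR40-2831. *Rgs16*, a regulator of G protein signaling, had 10.4, 10.5 and 16.5 TPM and 0.379, 1.16 and 1.07 TPM (−2.84 ± 0.50), and the magnesium carrier *Slc41a2* fell by 2.24.

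The counts of this paragraph stand beside 2.81% of all genes rising and 5.79% falling. Of 14 genes of ascorbate synthesis, recycling and transport 2 fell and 1 rose, none of the 3 in every leave-one-out, and 0 fell after scaling. The ascorbate carrier *Slc23a1* had 22.3, 29 and 29.2 TPM and 16.4, 13.3 and 18.6 TPM (adjusted p = 0.037, kept only without MGL00-2783 or MGLR40-2831, up to 0.147). The median of this list changed sign with scaling, from −0.07 to 0.01. Of 20 collagens and collagen hydroxylases 2 fell, *Col4a2* (9.67, 8.48 and 8.59 TPM and 4.91, 6.21 and 6.09 TPM, −0.56 ± 0.12) and *Col18a1*, the latter lost after scaling and whichever mouse was left out (adjusted p up to 0.151). Of 10 genes around the dioxygenases of carnitine and tyrosine metabolism 1 rose, the carnitine carrier *Slc22a5* (up to 0.0809 when 1 mouse was left out), and 1 fell, *Fah* (up to 0.0731, and lost after scaling). Of 15 genes of mitochondrial complex III 3 rose and 1 fell, each by 0.31 or less on the log2 scale, and at most 1 of the 4 was kept when a mouse was left out. Of 16 antioxidant genes 1 rose, catalase (*Cat*, lost without MGLR40-2829 or MGLR40-2831, up to 0.0542), and 3 rose after scaling. Of 14 genes of iron handling 2 rose, among them the hepcidin copy *Hamp2* (127, 66.7 and 35.9 TPM and 184, 193 and 308 TPM, adjusted p = 0.0213, kept only without MGL00-2783 or MGLR40-2828, up to 0.0906), and 3 fell, of which *Trf* held in every leave-one-out and 1 fell after scaling. *Alas2*, the aminolevulinate synthase gene of red cell precursors, had 16.8, 29.8 and 20.2 TPM and 56.5, 58.4 and 76.9 TPM (1.51 ± 0.28, adjusted p = 0.00531), the only 1 of 5 erythroid markers tested to pass. The hemoglobin transcripts took 0.105% of all TPM in MGL00 and 0.0913% in MGLR40 (exact permutation test, p = 0.4, 3 mice against 3).

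Beside the males kept on 0.4% ascorbate since weaning, the returned levels can be read gene by gene. These comparisons share the MGLR40 mice, so each has its own values. Between MGLR40 and MGL40 1 of 18288 genes was called (0.00547%), and 1746 had an unadjusted p under 0.05. The called gene was *Mfsd2a*, which carries lysophosphatidylcholine into cells: MGL40 had 14.2, 10.1 and 22.9 TPM, MGLR40 90.9, 78.1 and 78.3 TPM, MGL00 58.2, 82.6 and 78.9 TPM and MWT00 95.1, 174 and 93.8 TPM (2.39 ± 0.29, adjusted p = 0.0122). No gene was called when MGL40-2690, MGL40-2691, MGLR40-2828 or MGLR40-2829 was left out, and with only those 2 groups in the fit 1 other gene was called and not *Mfsd2a*. Without MGL40-2719 5 genes were called, and without MGLR40-2831 2. Each MGL40 mouse was lower than every MGL00 and MGLR40 mouse in this gene. A p that misses the threshold does not show likeness, and the 95% intervals of the difference were wide, 0.90 log2 units in the median over the 434 genes.

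Against MGL40 the 95% intervals of the difference included 0 for some genes with large changes on return, with −1.07 to 1.05 for *Fgl1*, −0.49 to 0.38 for *Hp*, −0.69 to 1.07 for *Elovl3* and −1.44 to 2.31 for *Mt2*. The Mups took 5.81, 6.04 and 4.78% of all TPM in MGLR40 and 11.7, 7.52 and 11% in MGL40 (means of 5.54 ± 0.672 and 10.1 ± 2.26%, SD, n = 3 each), and these groups did not overlap (exact permutation test, two-sided, p = 0.1, the smallest that 3 mice against 3 can give). The median difference of MGLR40 from MGL40 was −0.80 on the log2 scale over the Mups, −0.74 over the cholesterol synthesis genes, −0.57 over the male-biased genes and −0.05 over the acute phase genes, beside 0.03 over all genes tested. Single genes, too, had intervals clear of 0 without passing over all genes. *Hsd3b5* had 236, 108 and 49.5 TPM in MGL40, and MGLR40 was lower by 2.17 (interval −4.05 to −0.28, adjusted p = 0.456). *Gstp1* had 4682, 4399 and 3354 TPM there, and the difference was −1.08 (−1.63 to −0.52, adjusted p = 0.269). *Hamp2* stood above both MGL00 and MGL40, with 29.2, 24.9 and 72.9 TPM in MGL40 (difference 2.53, 1.63 to 3.42, adjusted p = 0.0702). *Per1*, with 2.08, 3.82 and 2.76 TPM in MGL40, lay between MGL00 and MGL40 in the MGLR40 mice.

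Against the wild type males 25 genes were called (0.137%), 8 higher and 17 lower in MGLR40, and leaving out a mouse gave 16 to 22, with 16 without MGLR40-2828. The mutated *Gulo* was among them (−2.70 ± 0.16, adjusted p = 1.21e-07), and 12 of the 25 lie on chromosome 14 with it, which holds 3.54% of the tested genes with a known chromosome. *Hamp2* was higher than in MWT00 (44, 44.8 and 34.1 TPM there; 2.42 ± 0.42, adjusted p = 0.028). None of *Mt2*, *Lcn2*, *Fgl1*, *Elovl3*, *Slco1a1*, *Mup20* and *Scd1* passed against MWT00, where their log2 differences were −1.32, −1.66, −0.15, 0.04, −0.01, −0.92 and 0.33. Here too, with 3 mice in each group, a miss does not show likeness.

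*Gulo*-/- females had been through the same removal (FGL00) and return (FGLR40) of ascorbate, with 3 other mice in each group. There 1205 genes were called (6.59%), 792 higher and 413 lower. Of the 186 genes higher in MGLR40, 157 were above 0 in females and 81 called higher there, with 1 called lower. Of the 248 lower in MGLR40, 177 were below 0 and 76 called lower, with 10 called higher. So 77.0% of the 434 had the sign of the males in females, against 54.1% of all genes tested. On the adjusted p alone 19.8% of all genes rose in females and 6.24% fell. Among the acute phase genes 23 of 32 fell there and 2 rose, and among the Mups 16 of 21 rose and 0 fell. *Fgl1* had 2393, 2352 and 2088 TPM in FGL00 and 434, 537 and 404 TPM in FGLR40, and *Mt2* 1766, 3525 and 2798 TPM and 222, 183 and 438 TPM.

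The difference between the sexes was tested as an interaction over all 36 mice, and 824 genes were called (4.51%), 183 with the male change above the female one and 641 below. That split leaned on scaling: median-ratio scaling gave 554 genes, 271 above and 283 below, and moved the median of all genes from −0.12 to −0.00. Of the 434 genes called in males 112 were also called here. On the adjusted p alone the interaction was above 0 in 1.65% of all genes and below 0 in 11.7%. The male change of the Mups was above the female one in 2 of 21 and below it in 6 (median −0.72, and −0.51 after scaling), and that of the acute phase genes above in 0 of 32 and below in 5 (median −0.23, and 0.00 after scaling). *Elovl3* was at 2.36, 1.44 and 1.76 TPM in FGL00 and 2.79, 3.44 and 8.15 TPM in FGLR40 (interaction 3.63 ± 0.59, adjusted p = 0.000286), and *Cyp4a12a* and *Hsd3b5* were at no more than 0.342 and 0.225 TPM in these 6 females, so that their interaction mostly repeats the male change. *Scd1* had 249, 245 and 230.0 TPM and 650.4, 303 and 602 TPM (4.26 ± 1.18, adjusted p = 0.0167). *Rgs16* went opposite ways, rising in females from 2.36, 7.22 and 3.56 TPM to 41.7, 50.4 and 83.3 TPM (−6.35 ± 0.78, adjusted p = 1.36e-05). *Hamp*, which did not pass in males, was at 135, 272 and 232 TPM in FGL00 and 7015, 5199 and 6531 TPM in FGLR40 (interaction −4.27 ± 0.45, adjusted p = 1.34e-06).

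Interferon-stimulated genes had the lowest median interaction of the 26 lists. In males 6 of 18 fell and 0 rose (median −0.52), beside 5.79% of all genes falling. In females 13 rose and 0 fell, beside 19.8% of all genes rising. The interaction was below 0 at an adjusted p of 0.05 in 15 of 18 (median −1.39, and −1.20 after scaling), beside 11.7% of all genes. *Isg15*, a ubiquitin-like modifier, had 17, 24.7 and 12.4 TPM in MGL00 and 9.11, 7.81 and 8.30 TPM in MGLR40, and 6.92, 5.92 and 6.55 TPM in FGL00 and 10.9, 15.8 and 11 TPM in FGLR40 (interaction −1.81 ± 0.36, adjusted p = 0.00157). The male count was unsteady: 3 after scaling, 0 without MGL00-2784 or MGLR40-2829, 1 without MGL00-2783, 2 without MGLR40-2828 or MGLR40-2831 and 7 without MGL00-2787. Of 32 female-biased genes 10 fell in males, and 12 rose and 5 fell in females, beside 19.8% and 6.24% of all genes there. *Cyp2c69*, a P450 of female liver, had 8.63, 1.14 and 2.78 TPM and 0.347, 0.215 and 0.0711 TPM in males, and 151, 152 and 205 TPM and 368, 591 and 329 TPM in females (interaction −3.13 ± 0.58).

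**Figure D5:**
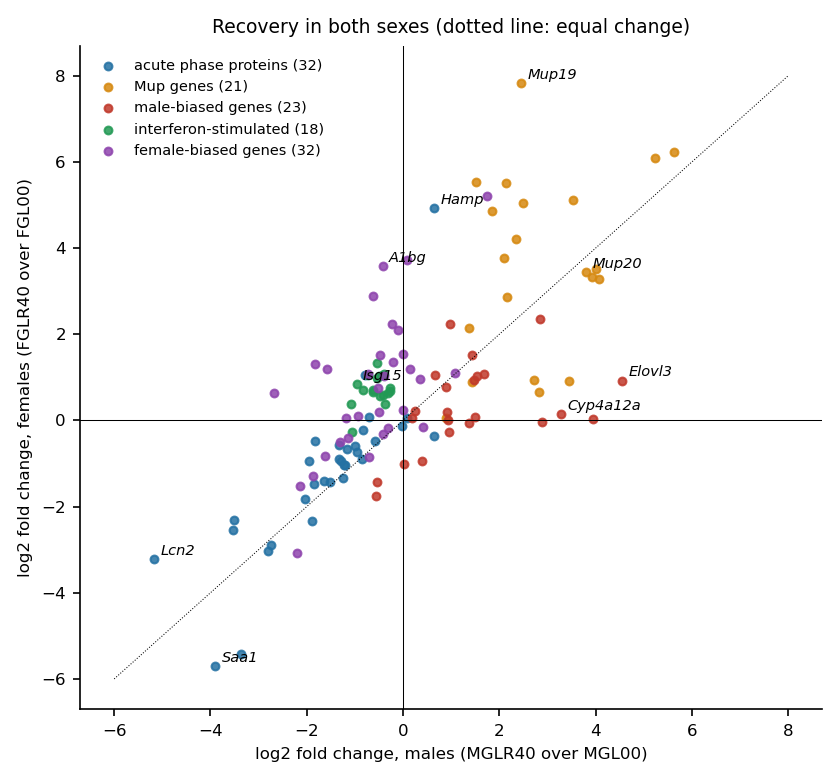
Log2 fold changes on return of ascorbate in males (MGLR40 over MGL00, across) and in females (FGLR40 over FGL00, upward), on the log2(TPM + 1) scale, for the tested members of 5 gene lists; the dotted line marks equal change. Most acute phase genes lie below 0 in both sexes and most Mups above 0 in both, the interferon-stimulated genes below 0 in males and mostly above 0 in females, and *Elovl3* and *Cyp4a12a* rise mainly along the male axis.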

How the data were processed

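Livers of 36 mice, 12 groups of 3, were sequenced as poly(A) RNA in paired-end libraries. The authors trimmed reads with fastp 0.20.0, pseudoaligned them with kallisto 0.46.2 and deposited TPM for 36066 genes. TPM keeps no depth, so the depth per mouse is unknown and no counting interval can be given, and a rise of abundant genes lowers the values of all others.

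Genes were tested with limma 3.58.1 (statmod 1.5.0, R 4.3.3) on log2(TPM + 1), with a mean-variance trend, robust variances and 1 mean per group over the 18 males. This scale understates the change of low genes. A gene was called when its p, adjusted after Benjamini and Hochberg over all tested genes, was below 0.05 and its group means differed more than 2 times. List members were counted on the adjusted p alone. The difference between the sexes was an interaction over all 36 mice, and summed families were compared by exact permutation. The fit was tested on simulated data. Tables and figures used Python 3.11.15, numpy 2.4.6, pandas 2.3.3, scipy 1.17.1 and matplotlib 3.10.9.

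Alternatives were median-ratio scaling (called scaling in the text), rescaling without the Mup genes, a pseudocount of 0.1, other filters on low values, only the groups compared, array weights, no ratio criterion, and leaving out each mouse. Genes to name were the 20 largest rises and 20 largest falls among called genes with at least 5 TPM and no overlap, the 4 most abundant members past the test in each list, the called genes of the other contrasts (the 5 largest in each direction where over 10) and a fixed set of members. Others named were chosen after their values were seen. The members and the lists were chosen with earlier results of these data known. Promoters are RefSeq's on GRCm38.p6, and chromosomes and gene spans those of GENCODE M21, matched by gene ID for 35825 genes. The results of 2 list members are not reported here.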

Additional observations from a re-analysis of the deposited data

Results flagged for a closer look

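For 44 genes named in the comparison of MGLR40 with MGL00, or past the test there as list members, the change on return of ascorbate differed between males and females in the test of that difference by limma (adjusted p under 0.05, with the ratio of mean TPM on return differing by more than 2 times between the sexes). Of all 18288 genes tested 824 (4.51%) met these criteria, 183 above 0 and 641 below. After median-ratio scaling 554 met them, 271 above 0 and 283 below. The genes named include those with the largest differences in this same test, so it partly chose the 44. Each value below is the male log2 fold change minus the female one, on the log2(TPM + 1) scale.

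Values above 0 came from male-biased genes, *Elovl3* (3.63), *Cyp4a12a* (3.13), *Cyp4a12b* (2.905), *Hsd3b5* (3.91), *C6* (1.42) and *Cspg5* (0.92), from the N-acetyltransferase gene *Nat8f5* (2.97), from *Pitx3* (4.37), whose span touches that of *Elovl3*, and from the desaturase *Scd1* (4.26). *Cyp4a12a*, *Cyp4a12b*, *Hsd3b5*, *Cspg5*, *Nat8f5* and *Pitx3* were at no more than 0.399 TPM in any of the 6 females, so that their value mostly repeats the change in males. The red cell marker *Alas2* (3.08), the STAT5 target *Socs2* (2.44) and the kinase gene *Pim1* (1.77) were also above 0. The Mups were divided: *Mup21* (2.53) and *Mup6* (0.85) lay above 0, and *Mup19* (−5.37), *Mup18* (−4.00), *Mup16* (−3.39), *Mup22* (−3.02), *Mup3* (−2.56) and *Mup10* (−1.66) below it, with the split of reads among the nearly identical copies uncertain.

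Female-biased genes lay below 0, namely *A1bg* (−4.00), *Cyp2c69* (−3.13), *Cyp2c40* (−2.78), *Sult2a2* (−1.81) and *Slc22a26* (−0.81). So did members of the interferon-stimulated list, *Isg15* (−1.81), *Usp18* (−1.79), *Ifit3* (−1.55) and *Irgm1* (−1.29), and also *Lpin1* (−2.29), *Fasn* (−1.75), *Cyp2f2* (−1.93), *Cyp2c37* (−1.51) and *Ahr* (−1.60). Other genes below 0 were *Hamp* (−4.27), *Cxcl1* (−2.002), *Tsc22d3* (−1.94), *Herpud1* (−1.65), *Rtp3* (−1.36), *Nfkbia* (−1.09), *Prg4* (−1.06), *Steap4* (−1.02) and *Ccng1* (−0.99). The lowest value was that of *Rgs16* (−6.35). No cause was tested for any of these values.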

How the results depend on the processing

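No paired analysis was possible because the replicate numbers are animal numbers that no 2 groups share. The 434 genes called between MGLR40 and MGL00 became 1573 without the criterion on the ratio, 401 after median-ratio scaling (209 higher and 192 lower, against 186 and 248), 373 after rescaling without the Mup genes, 424 with a pseudocount of 0.1, 403 with no filter, 435 with detection in 13 of 18 males, 352 with at least 1 TPM in 3 of the 6 mice, 475 with only the groups compared and 599 with array weights. Leaving out 1 mouse gave 283 (without MGLR40-2829) to 371 genes. The single gene between MGLR40 and MGL40 became 3 with no filter and 7 with array weights, and 0 to 5 when 1 mouse was left out: 0 without MGL40-2690, MGL40-2691, MGLR40-2828 or MGLR40-2829 and 5 without MGL40-2719. The 25 between MGLR40 and MWT00 became 16 with at least 1 TPM in 3 of the 6 mice, and 16 (without MGLR40-2828) to 22 when 1 mouse was left out. The 824 of the difference between the sexes became 2437 without the criterion on the ratio and 554 after scaling, and 647 to 878 when 1 mouse was left out. Among 121 named genes past the adjusted p, 57 stayed past it under every alternative run, and none changed direction. *Cyp7b1* and *Mup19*, not past it at first, passed with only the groups compared and with array weights. The cause of these shifts was not tested. A fit without 1 mouse leaves 2 in its group, which are assumed to vary like the other groups.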

Other observations

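*Alas2*, which starts heme synthesis in red cell precursors, was at 16.8, 29.8 and 20.2 TPM in MGL00 and 56.5, 58.4 and 76.9 TPM in MGLR40, but at 19.3, 29.7 and 27.7 TPM in FGL00 and 7.27, 9.52 and 6.83 TPM in FGLR40. The globin gene *Hba-a1* had 125, 202 and 279 TPM and 165, 129 and 157 TPM in males, which overlap, and 552, 947 and 949.6 TPM and 116, 139.8 and 142 TPM in females, which do not (log2 difference of males minus females 2.21 ± 0.48, adjusted p = 0.00321 by limma). All 5 erythroid markers tested had a difference above 0 between the sexes at an adjusted p under 0.05, with a median of 2.21, beside 1.65% of all genes tested. How much blood each liver held was not measured.

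The 12 genes of chromosome 14 among the 25 called between MGLR40 and MWT00 were *Gulo*, *Arhgef40*, *Spryd7*, *Hr*, *Ajuba*, *Psmb5*, *Cysltr2*, *Nudt18*, *Sall2*, *Cebpe*, *Ppp1r3e* and *Klhl33*. They were named after their values were seen. Detected in 3 of the 6 mice and so left out of the tests were 80 genes above 0 in every MGLR40 mouse and at 0 in every MGL00 mouse, with a highest mean of 18.5 TPM, and 47 the other way, with a highest mean of 1.42 TPM.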
